A study of Mus musculus with 8 samples.

Results

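The 3 chains of C1q and 5 further complement genes were examined in RAW264.7, a macrophage-like line of mouse origin, after treatment with IL-13 (interleukin-13), ATRA (all-trans retinoic acid) or both. The 8 genes were C1qa, C1qb, C1qc, C3, C3ar1, C5ar1, Cfp and Cfb. They were chosen by their place in the complement system and by their log2 signals over the treatments in these same arrays, so their levels and differences are given as a description and without p-values. Spots were taken where the array annotation carried the gene's symbol or an older synonym, which gave 19 spots of 10 probes for 8 genes among 41174 probes in all. Of the 8 genes, 8 had a probe that passed the filter on dim probes, and 15440 genes in all were tested.

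Total RNA went on 8 one-colour Agilent arrays, 1 per treatment and time, for 4 treatments and the times 24 h and 12 h. The treatments were IL-13 together with ATRA, ATRA alone, IL-13 alone and an untreated control. All cultures grew in DMEM with heat-inactivated fetal bovine serum, and the labels give no doses. The submitters describe control and ATRA cells as unpolarized, cells given IL-13 as M2 macrophages, and cells given both agents as cells whose M2 polarization was suppressed. The cells are a single immortalised line and not primary macrophages. No label says that the 8 cultures were separate. Every p-value below thus rests only on how far treatment differences at 24 h and at 12 h disagreed. In the main fit that disagreement was pooled over all 4 treatments and drawn toward the spread of all genes. An SE or p-value therefore also reflects arrays outside its own comparison. The 24 h arrays lay on one slide and the 12 h arrays on another, so a difference between times cannot be told apart from one between slides. Treatments were compared within a slide.

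Complement is a chain of plasma proteins and receptors that tags particles for uptake and recruits inflammatory cells. C1q, built from the products of C1qa, C1qb and C1qc, recognises antibody complexes and dying cells and starts the classical pathway, which leads to cleavage of C3. Factor B (Cfb) and properdin (Cfp) form and stabilise the convertase of the alternative pathway, and the fragments C3a and C5a act on the receptors encoded by C3ar1 and C5ar1. Most complement proteins of plasma come from the liver, whereas C1q is made largely by macrophages. IL-13 signals through STAT6, and ATRA acts through retinoic acid receptors that bind DNA as heterodimers with RXR.

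The probes are shown because the levels of the 8 genes below are read from these sequences, apart from those of the second C3ar1 probe, which is not shown. Each is 60 bases and its position was given by the file annotation on mouse build mm9, minus strand. The capitals mark the longest run of bases that a probe shares with a probe named for another gene on the array, which was 12 to 15 bases, so no probe of the 8 genes carried a long stretch of another probe.
C1qa, chr4:136452409-136452468: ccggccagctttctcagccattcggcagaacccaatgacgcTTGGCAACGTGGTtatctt
C1qb, chr4:136436578-136436637: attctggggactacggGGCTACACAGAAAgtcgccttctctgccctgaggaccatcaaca
C1qc, chr4:136445766-136445825: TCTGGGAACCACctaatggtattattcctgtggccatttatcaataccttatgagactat
C3, chr17:57343416-57343475: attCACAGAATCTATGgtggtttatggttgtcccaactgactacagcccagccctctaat
C3, second probe, chr17:57364538-57364695: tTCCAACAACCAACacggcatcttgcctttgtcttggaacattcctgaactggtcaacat
C3ar1, chr6:122798222-122798281: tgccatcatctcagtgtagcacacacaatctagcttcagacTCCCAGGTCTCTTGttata
C5ar1, chr7:16833871-16833930: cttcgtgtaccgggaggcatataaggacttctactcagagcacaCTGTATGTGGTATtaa
Cfp, chrX:20502742-20502801: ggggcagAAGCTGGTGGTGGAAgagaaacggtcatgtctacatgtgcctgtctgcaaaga
Cfb, chr17:34993502-34993858: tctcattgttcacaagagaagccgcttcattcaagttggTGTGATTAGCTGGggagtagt
The second C3 probe and the Cfb probe each span more of the genome than their own length (158 and 357 bases), as a probe across an exon junction would. Levels of different probes are not compared with each other, because probes differ in how strongly they bind. Values are normalised signals in arbitrary units, that is, Feature Extraction's processed signal after the arrays were scaled to a common 75th percentile.

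The 3 C1q chains were higher with ATRA, with IL-13 and with both agents than in control cells, on every array. C1qa had a normalised signal of 2665 at 24 h and 1219 at 12 h with IL-13 and ATRA, 2013 and 1144 with ATRA, 646 and 221 with IL-13, and 22.6 and 63.7 in control cells. The 4 arrays with ATRA lay above both IL-13 arrays, which in turn lay above both control arrays, and the arrays given both agents overlapped with those given ATRA alone. C1qb, which encodes the B chain, had 2430.0 and 1005 with IL-13 and ATRA, 1786 and 765 with ATRA, 590.0 and 235 with IL-13, and 73.6 and 105 in control cells (24 h, then 12 h). C1qc, the C chain, had 5987 and 2027 with IL-13 and ATRA, 5688 and 2448 with ATRA, 1438 and 422 with IL-13, and 65.2 and 209 in control cells (24 h, then 12 h). All 3 chains thus had the same order of treatments, with both agents and ATRA alone at the top without separation, IL-13 next and control lowest. In a bulk culture, a larger share of cells with C1q RNA and more C1q RNA per cell cannot be told apart.

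**Figure D1:**
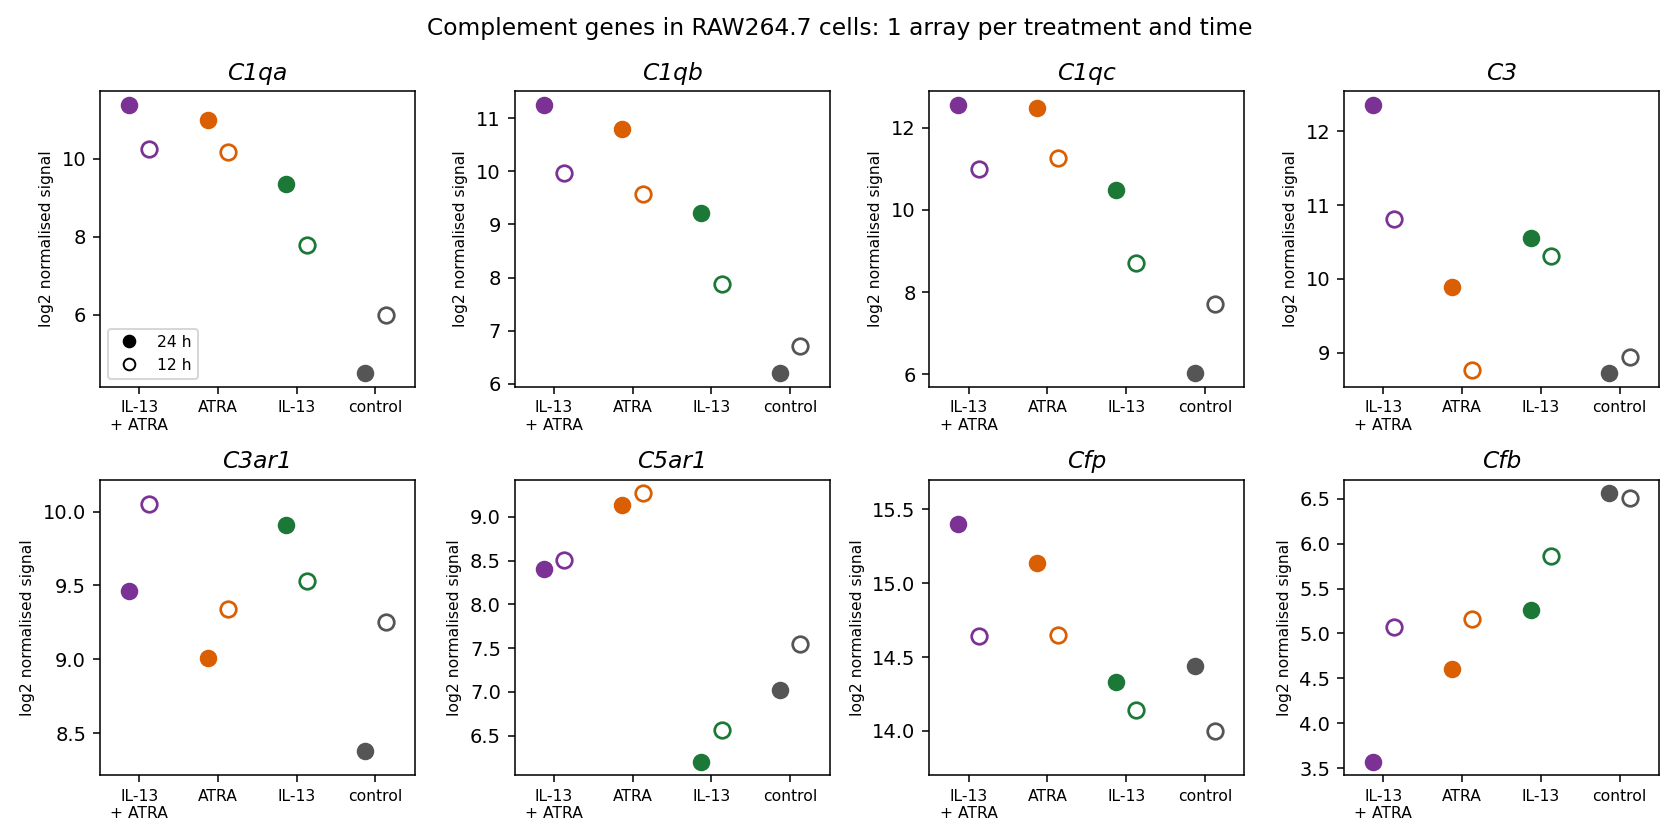
Log2 normalised signal of the 8 complement genes on each of the 8 arrays, 1 panel per gene with its own vertical axis. Filled points are 24 h arrays and open points 12 h arrays of each treatment, with no error bars since each point is 1 array. The 3 C1q panels share 1 order of treatments, C5ar1 is lowest with IL-13, and Cfb is highest in control cells.

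The C1q differences against control were larger at 24 h than at 12 h, and the control arrays differed between the times in the opposite direction to the treated ones. ATRA minus control was 6.48 at 24 h and 4.17 at 12 h on the log2 scale for C1qa, with a fitted value of 5.32 ± 0.72 (SE, 2 arrays per treatment), or 40.0-fold. For C1qb it was 4.6 and 2.87 with a fitted value of 3.73 ± 0.48, or 13.3-fold. For C1qc it was 6.45 and 3.55 with a fitted value of 5.00 ± 0.86, or 31.9-fold. C1qb had the smallest difference of the 3 chains at both times. With normexp background correction, which adds an offset of 50 to every signal, the fitted values were 3.74 for C1qa, 3.09 for C1qb and 4.30 for C1qc. Within a treatment, the 24 h minus 12 h differences of the 3 chains lay between 0.82 and 1.77 with ATRA, IL-13 or both. In control cells they were -1.5 for C1qa, -0.51 for C1qb and -1.68 for C1qc, against a range of -0.74 to 0.48 for the 5th to 95th percentile of all 15440 genes.

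With IL-13 alone the C1q chains were also above control, by less than with ATRA. IL-13 minus control was 4.84 at 24 h and 1.79 at 12 h for C1qa, with a fitted value of 3.32 ± 0.72. It was 3.0 and 1.16 for C1qb, with a fitted value of 2.08 ± 0.48, and 4.46 and 1.01 for C1qc, with a fitted value of 2.74 ± 0.86. The fitted value of C1qa was 2.02 with normexp. The 12 h differences of 2.02-fold for C1qc and 2.24-fold for C1qb were the smallest of the C1q differences against control, and at 24 h the same genes stood 22.0-fold and 8.02-fold above control.

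With ATRA added to IL-13, all 3 chains were higher than with IL-13 alone by nearly the same amount. IL-13 with ATRA minus IL-13 was 2.04 and 2.47 for C1qa, 2.04 and 2.10 for C1qb, and 2.06 and 2.26 for C1qc (24 h, then 12 h), which is 4.12-fold to 5.53-fold. Adding IL-13 to ATRA left them close to the level with ATRA alone. IL-13 with ATRA minus ATRA was 0.25 ± 0.72 for C1qa, 0.42 ± 0.48 for C1qb and -0.10 ± 0.86 for C1qc, each smaller than its SE. These SEs also take in the spread of the control and IL-13 arrays. At 24 h and 12 h the differences were 0.40 and 0.09 for C1qa, 0.44 and 0.39 for C1qb, and 0.07 and -0.27 for C1qc. Against control, the cells given both agents had fitted differences of 5.57 ± 0.72 for C1qa, 4.15 ± 0.48 for C1qb and 4.90 ± 0.86 for C1qc, which were 3.97, 3.45 and 4.21 with normexp. The fitted interaction is the combined difference minus the sum of the 2 single ones. It was -3.07 ± 1.02 for C1qa, -1.66 ± 0.68 for C1qb and -2.84 ± 1.21 for C1qc. On the log2 scale the combined level thus lay below that sum for each chain. The interaction was larger in size at 24 h than at 12 h, at -4.43 and -1.70 for C1qa. For C1qb it was -2.56 and -0.77, and for C1qc -4.39 and -1.28. With normexp the interaction of C1qa was -1.79.

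C3, the protein on which the pathways converge, had a different order, with the highest signals where both agents were present. C3 had 5268 and 1800 with IL-13 and ATRA, 949 and 435 with ATRA, 1508 and 1269 with IL-13, and 422 and 491 in control cells (24 h, then 12 h). The arrays with ATRA alone overlapped with control, the IL-13 arrays lay above both, and the arrays with both agents lay above all others. IL-13 with ATRA minus control was 3.64 at 24 h and 1.87 at 12 h, with a fitted value of 2.76 ± 0.44. IL-13 minus control was 1.6 ± 0.44, and ATRA minus control was 0.50 ± 0.44 with opposite signs at 24 h (1.17) and 12 h (-0.17). Without the 24 h control array the last value was -0.10. IL-13 with ATRA minus ATRA was 2.26 ± 0.44 and IL-13 with ATRA minus IL-13 was 1.15 ± 0.44. The fitted interaction was 0.66 ± 0.62, so the excess over the sum of the single differences was about as large as its SE.

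The C3 reading came from 10 repeated spots of 1 probe, whose signals before scaling had a coefficient of variation of 3.24% to 5.49% on an array. The second C3 probe cleared background on 3 of 8 arrays and did not pass the filter. It read 14.0 and 5.20 with IL-13 and ATRA, 10.3 and 1.69 with ATRA, 7.03 and 2.61 with IL-13, and 2.12 and 1.70 in control cells (24 h, then 12 h). Its 24 h array with both agents was also its highest and its control arrays were among its lowest. Its mean difference over the times was 2.17 for IL-13 with ATRA minus control and 1.14 for ATRA minus control, that for ATRA with 2.28 at 24 h and -0.01 at 12 h. Its control signals and its 12 h ATRA signal were not well above background, so these differences are not ranked against those of the first probe.

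Cfb, the catalytic component of the alternative convertase, was the only one of the 8 genes that was lower than control in all 3 treatments. Cfb had 11.8 and 33.6 with IL-13 and ATRA, 24.2 and 35.7 with ATRA, 38.2 and 58.2 with IL-13, and 94.5 and 90.9 in control cells (24 h, then 12 h). Both control arrays lay above the 6 others, and the 24 h array with both agents was the 1 array on which the probe was not well above background. The fitted differences against control were -2.22 ± 0.35 for IL-13 with ATRA, -1.66 ± 0.35 for ATRA and -0.97 ± 0.35 for IL-13. With normexp they were smaller in size, at -0.82, -0.75 and -0.55. Without that 24 h array, IL-13 with ATRA minus ATRA was 0.01, against -0.56 ± 0.35 with it. Cfp, properdin, which stabilises the same convertase, had 43210 and 25615 with IL-13 and ATRA, 36103 and 25755 with ATRA, 20528 and 18104 with IL-13, and 22259 and 16440 in control cells (24 h, then 12 h). The 4 arrays with ATRA lay above the 4 without it, at a difference of 0.67 ± 0.16 for ATRA minus control and 0.79 ± 0.16 for IL-13 with ATRA minus IL-13. IL-13 minus control was 0.01 ± 0.16 for Cfp and changed sign to -0.07 under quantile normalization.

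The receptors for C3a and C5a differed from each other in order. C5ar1, the main C5a receptor, had 337 and 365 with IL-13 and ATRA, 563 and 617 with ATRA, 73.5 and 94.7 with IL-13, and 130.0 and 187 in control cells (24 h, then 12 h). No 2 treatments overlapped, and ATRA alone was highest and IL-13 alone lowest. ATRA minus control was 1.92 ± 0.14, IL-13 minus control was -0.90 ± 0.14, and IL-13 with ATRA minus control was 1.17 ± 0.14, with an interaction of 0.15 ± 0.20 that changed sign to -0.06 with normexp background correction. The time differences of C5ar1 were small, between -0.53 in control cells and -0.11 with both agents, so the values at 24 h and 12 h were close: 2.12 and 1.72 for ATRA minus control, and 2.2 and 1.95 for IL-13 with ATRA minus IL-13. C5ar1 had the smallest SE of the 8 genes.

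C3ar1, the C3a receptor, had 702 and 1063 with IL-13 and ATRA, 516 and 647 with ATRA, 963 and 742 with IL-13, and 333 and 607 in control cells (24 h, then 12 h). Both arrays of IL-13 and both of the combination lay above both control arrays, while ATRA overlapped with control. IL-13 minus control was 0.91 ± 0.30, with 1.53 at 24 h and 0.29 at 12 h, and ATRA minus control was 0.36 ± 0.30. The second C3ar1 probe read 170.0 and 266 with IL-13 and ATRA, 128 and 164 with ATRA, 225 and 186 with IL-13, and 65.8 and 145 in control cells (24 h, then 12 h). Its differences had the same signs as those of the first probe in all 5 comparisons, for example 1.07 for IL-13 minus control.

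**Figure D2:**
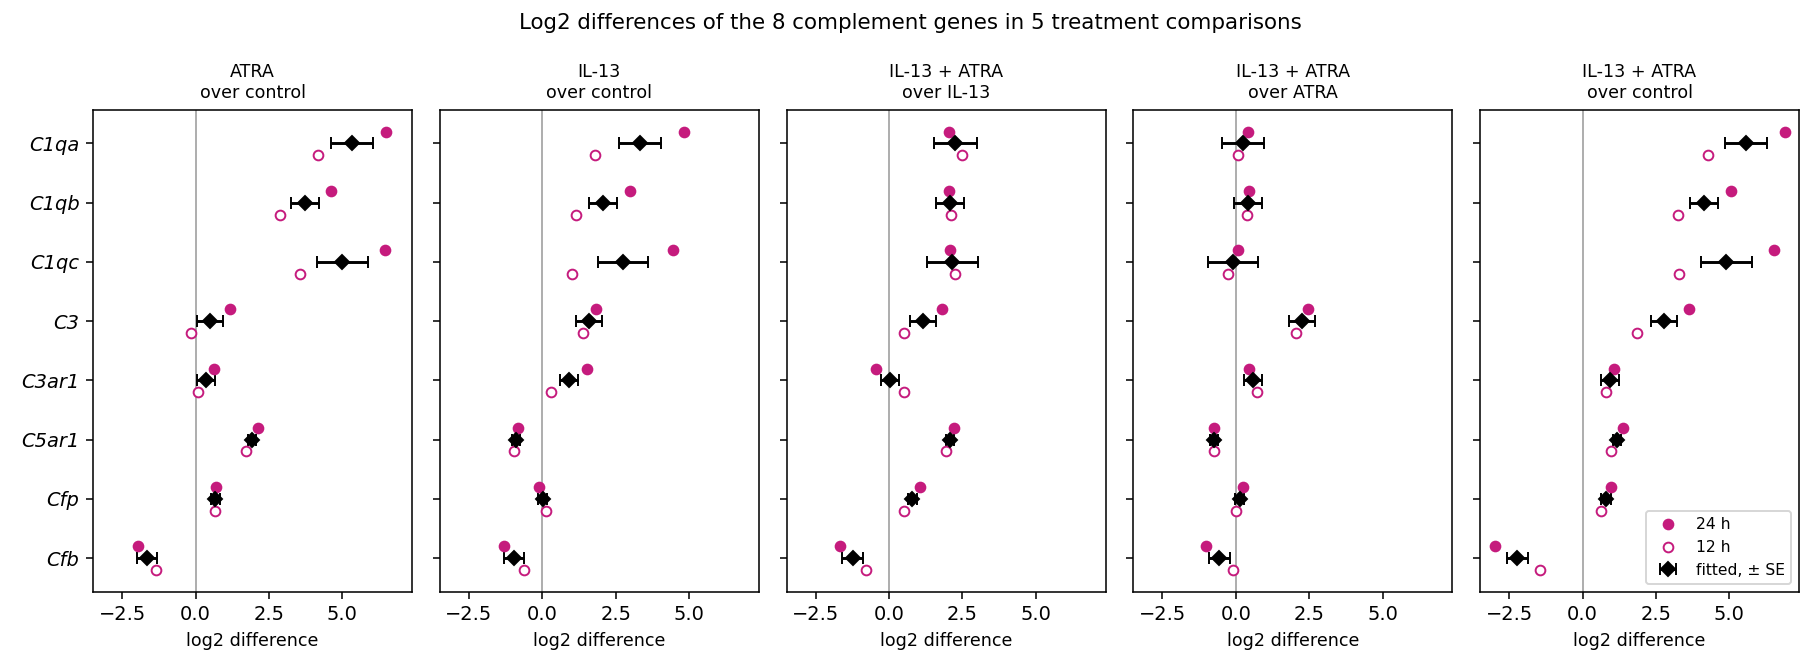
Log2 difference of normalised signal for the 8 genes (rows) in 5 treatment comparisons (panels), as the first-named treatment minus the second. Circles are the differences at 24 h (filled) and 12 h (open), and diamonds with bars are fitted values ± SE over 2 arrays per treatment. In the panel of IL-13 with ATRA over ATRA, the C1q chains lie near 0 and C3 at 2.26.

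Counted over the 8 genes, with a call in either direction at an adjusted p under 0.05 (limma, Benjamini-Hochberg over all genes tested), ATRA against control called 3 (C1qa, C1qb and C5ar1, all higher), where 1.86% of all genes were called. IL-13 against control called 0 of 8, against 1.27% of all genes, with 7 of 8 at an unadjusted p under 0.05. IL-13 with ATRA against IL-13 called 1 (C5ar1, higher), against 2.64% of all genes, and IL-13 with ATRA against ATRA called 0, against 0.363%, with 2 of 8 at an unadjusted p under 0.05. IL-13 with ATRA against control called 7, all but C3ar1, of which Cfb was lower and 6 were higher, against 8.5% of all genes. The interaction called 0, against 0.0194%, with 1 of 8 at an unadjusted p under 0.05. Since the genes were picked with these contrasts known, these counts are not a test of them and nothing is read from them. The share of all genes at an unadjusted p under 0.05 is not given here, so those counts have no background.

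The median over the 8 genes was 1.30 for ATRA minus control, beside -0.02 over all genes tested. It was 1.26 for IL-13 minus control, 1.61 for IL-13 with ATRA minus IL-13, 0.19 for IL-13 with ATRA minus ATRA and 1.96 for IL-13 with ATRA minus control, with medians of all genes between -0.03 and 0.00. Both arrays of one treatment lay on one side of both arrays of the other for 6 of 8 genes in ATRA against control, where 45.0% of all genes did so. That count was 7 for IL-13 against control (51.3% of all genes), 7 for IL-13 with ATRA against IL-13 (45.8%), 3 for IL-13 with ATRA against ATRA (51.1%) and 8 for IL-13 with ATRA against control (57.2%). These comparisons share arrays, ATRA and IL-13 alone sharing the control arrays, so they are not independent of each other.

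The genes for the C1q chains neighbour each other on mouse chromosome 4 in the order C1qb, C1qc and C1qa. In the 3 places on each side lie Tex46, Lactbl1 and Ephb2, and Epha8, Zbtb40 and Wnt4. Of these, Zbtb40, a zinc finger gene, was the 1 gene whose probe passed the filter. Its log2 difference was 0.28 ± 0.20 for ATRA minus control (limma adjusted p = 0.614) and 0.02 ± 0.20 for IL-13 with ATRA minus control (adjusted p = 0.956). Ephb2, Epha8 and Wnt4 were well above background on 0 arrays and Tex46 on 1 array.

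The promoters of 6 of the 8 genes were matched in the RefSeq promoter table of build GRCm38.p6, which does not list C1qa or Cfb. The 2 promoters of C1q chains are shown because the chains shared an order of treatments, with that of C5ar1, which was also higher with ATRA. Each is 300 bases around the annotated start, 5′ to 3′ on the minus strand of the genome, and the capitals mark every match, on either strand, to AGGTCA or GAGGAA.
C1qb, chr4:136886151-136886450: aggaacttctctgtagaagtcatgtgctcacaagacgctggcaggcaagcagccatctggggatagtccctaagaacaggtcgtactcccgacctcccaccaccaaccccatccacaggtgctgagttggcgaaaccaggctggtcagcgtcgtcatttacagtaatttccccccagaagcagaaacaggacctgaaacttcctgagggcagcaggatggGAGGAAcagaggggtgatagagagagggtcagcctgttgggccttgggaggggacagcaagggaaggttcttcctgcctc
C1qc, chr4:136892865-136893164: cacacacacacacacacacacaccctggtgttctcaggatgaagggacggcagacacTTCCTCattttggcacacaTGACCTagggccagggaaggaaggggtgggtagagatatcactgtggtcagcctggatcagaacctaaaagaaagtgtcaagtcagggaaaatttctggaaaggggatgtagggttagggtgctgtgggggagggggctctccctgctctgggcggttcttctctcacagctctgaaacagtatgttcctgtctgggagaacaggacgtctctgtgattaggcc
C5ar1, chr7:16259289-16259588: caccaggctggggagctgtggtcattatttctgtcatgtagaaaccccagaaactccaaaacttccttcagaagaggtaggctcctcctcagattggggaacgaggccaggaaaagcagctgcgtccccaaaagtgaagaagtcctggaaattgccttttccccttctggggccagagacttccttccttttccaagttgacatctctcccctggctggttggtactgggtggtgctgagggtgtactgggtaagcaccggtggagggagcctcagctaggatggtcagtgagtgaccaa
AGGTCA, the half-site that retinoid receptors bind in pairs, had 1 match each in C1qc, C3 and Cfp and 0 in C1qb, C3ar1 and C5ar1, and 16.3% of 32851 promoters of this length held it. The direct repeats AGGTCANAGGTCA, AGGTCANNAGGTCA and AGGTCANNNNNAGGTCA, each of which contains the half-site, had 0 matches in the 6 promoters, beside 0.0396%, 0.00913% and 0.00913% of all promoters. TTCNNNNGAA, the palindrome that STAT6 binds, had 0 matches in the 6, beside 6.95% of all. GAGGAA, the core that the macrophage factor PU.1 binds, had 1 match in C1qb, 1 in C1qc and 2 in Cfp, beside 28.3% of all. These matches describe letters in a short window and say nothing of binding.

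The genes most like C1q over the 8 arrays were found by the root-mean-square difference between a gene's log2 signal, minus its own mean, and the mean of the 3 C1q chains treated in the same way. Over 14626 genes well above background on both ATRA arrays, the median of this measure was 2.09. The smallest values were 0.68 for Tbxas1, thromboxane synthase, 0.82 for Ccl24, a chemokine for eosinophils, 0.82 for Ptgs1, cyclooxygenase-1, 0.89 for Cp, the ferroxidase ceruloplasmin, and 0.95 for Abca13, a member of the ABC transporter family. The chains themselves lay 0.30 (C1qa), 0.40 (C1qb) and 0.19 (C1qc) from the mean they form, while C3 was at 1.6, C5ar1 at 1.65, Cfp at 1.75, C3ar1 at 1.86 and Cfb at 2.96. By this measure none of the 5 other complement genes was as near to C1q as any of the 5 genes named. The genes named were taken as the nearest of 14626, so nearly every other gene lay further off by that choice. C3, C5ar1, Cfp and C3ar1 lay below the median of 2.09, and Cfb lay above it. The measure takes in the size of the differences as well as their order. A gene with small differences thus lies far from C1q whatever its order.

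Since these 5 genes were picked for their likeness to C1q, their resemblance to it is a description. In Tbxas1 and Ccl24 both arrays with IL-13 and ATRA lay above both with ATRA alone, whereas in the C1q chains these overlapped. That overlap sets 24 h arrays against 12 h arrays. Within a time, IL-13 with ATRA minus ATRA was 0.54 at 24 h and 0.58 at 12 h for Tbxas1. It was 1.03 and 2.52 for Ccl24, 0.40 and 0.09 for C1qa, 0.44 and 0.39 for C1qb, and 0.07 and -0.27 for C1qc. Ccl24 had 2386 and 2623 with both agents, and 1170 and 456 with ATRA (24 h, then 12 h). Tbxas1 had 3299 and 3665 with IL-13 and ATRA, 2270.0 and 2452 with ATRA, 575 and 429 with IL-13, and 116 and 121 in control cells (24 h, then 12 h). Its control arrays were almost level, whereas those of C1qa differed by 1.5 on the log2 scale. Ptgs1 had 29811 and 19697 with IL-13 and ATRA, 22349 and 18481 with ATRA, 2053 and 1960.0 with IL-13, and 814 and 1249 in control cells (24 h, then 12 h). A second probe of Tbxas1 gave a similar ATRA minus control difference (4.17, beside 4.32 for the first), while another was well above background on 0 arrays. The second Cp probe, well above background on 4 of 8 arrays, differed from the first, at 0.40 beside 2.90 for ATRA minus control and -0.91 beside 0.81 for IL-13 minus control. Abca13 was well above background on 3 of 8 arrays, so its order among the others is not measured.

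**Figure D3:**
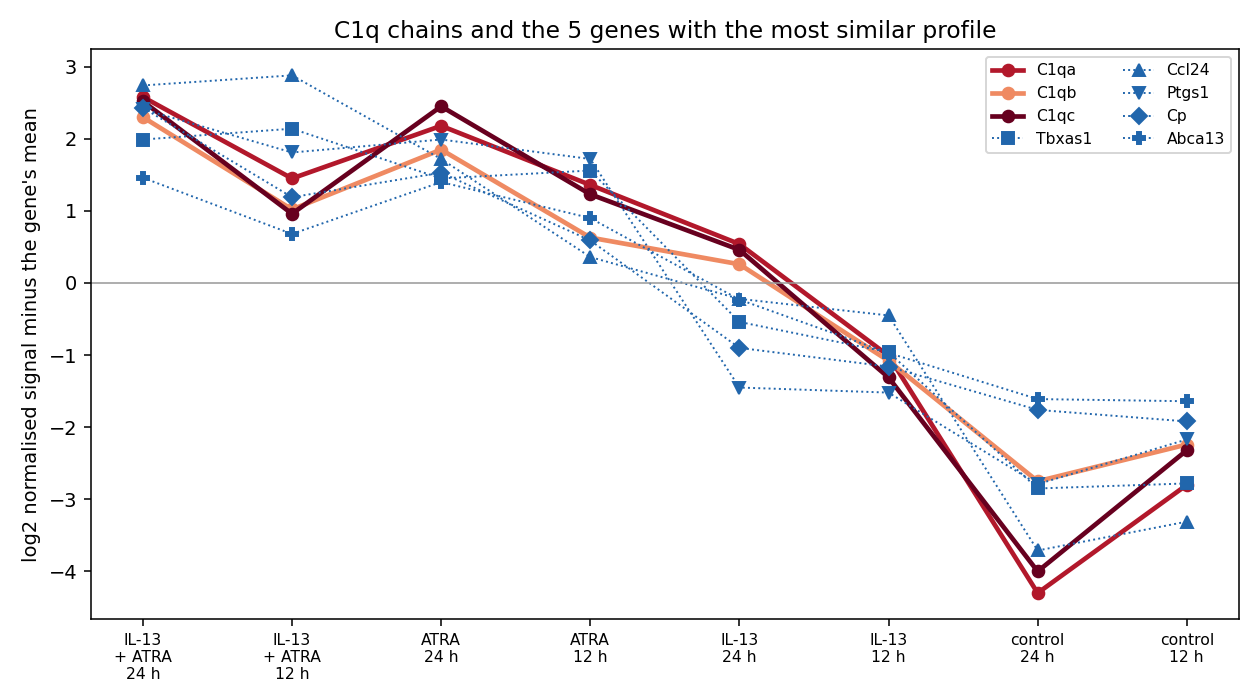
Log2 normalised signal minus the gene's own mean over the 8 arrays, for the 3 C1q chains (solid red lines) and the 5 genes with the smallest root-mean-square difference from their mean (dotted blue lines). Each point is 1 array, and the lines only join points of a gene. In control cells the C1q chains lie lower at 24 h than at 12 h, and Tbxas1, at a difference of 0.68, is the nearest gene.

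Of 65 further complement genes in lists of initiation factors, alternative and terminal factors, regulators, receptors and C1q-domain relatives, 64 had a probe and 27 passed the filter. The lists were written with earlier results known. Of the 27, 1 was called higher and 0 lower in ATRA against control, where 1.86% of all genes were called in either direction. In IL-13 against control 4 were called higher and 0 lower (1.27% of all genes), and in IL-13 with ATRA against IL-13 1 higher and 1 lower (2.64%). In IL-13 with ATRA against ATRA 2 were called higher and 0 lower (0.363%), and in IL-13 with ATRA against control 5 higher and 0 lower (8.5%). In the interaction limma called 0 (0.0194% of all genes), with 4 at an unadjusted p under 0.05. The medians of the 27 lay between -0.05 and 0.06, near those of all genes. Calls in any comparison spread over 7 genes: 1 initiation factor of 6, 1 regulator of 5 and 5 receptors of 10, with 0 of 3 in each of the other lists. Of these, Serping1 passed the filter only through the IL-13 arrays, where it was high. The share of all genes called in at least 1 comparison is not given here. The counts per list thus have no background, and nothing is read from them.

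C4b encodes C4, which C1s cleaves after C1q has bound. C4b had 13.8 and 10.8 with IL-13 and ATRA, 15.6 and 19.7 with ATRA, 164 and 54.3 with IL-13, and 11.1 and 9.99 in control cells (24 h, then 12 h). It was high on both arrays with IL-13 alone and near the low end on the 6 others. It rose by 3.17 ± 0.44 in IL-13 against control (limma adjusted p = 0.0487) and fell by 2.95 in IL-13 with ATRA against IL-13 (SE 0.44, adjusted p = 0.0412), while the interaction of -3.69 ± 0.63 had an adjusted p of 0.642. C4a is a near-identical copy, so the 2 genes cannot be told apart with certainty from this probe. Both C4b calls were lost in 7 of 8 refits that left out 1 array, all but that without the 12 h IL-13 array, with adjusted p up to 0.229 and 0.231. The first was also lost under quantile normalization and in the authors' deposited table, and with normexp the differences were 1.24 and -1.08.

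Serping1 encodes the inhibitor of C1r and C1s. It was well above background on both IL-13 arrays, at 14.4 at 24 h and 28.9 at 12 h, and on none of the 6 others, which read 4.86 and 11.5 with IL-13 and ATRA, 2.08 and 7.08 with ATRA, and 1.66 and 1.87 in control cells. Since it entered the test only through the IL-13 arrays, its result there is a description: IL-13 was at least 2.52-fold above control (limma adjusted p = 0.029), which sets the mean of both IL-13 arrays against the lowest signal well above background on the control arrays or the probe's own, whichever is higher. In IL-13 with ATRA against control (adjusted p = 0.0325) neither group was above background, and no fold or direction is given. Both calls were lost without the time term, with time as a random block and with normexp (adjusted p of 0.311 and 0.435). The first was also lost on leaving out any 1 array with IL-13 or any control array (adjusted p up to 0.117), and the second on leaving out any array of the groups compared (up to 0.162).

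Among the receptors, Cd93, once described as a receptor for C1q, went with ATRA. Cd93 had 54.2 and 61.0 with IL-13 and ATRA, 186 and 130.0 with ATRA, 17.8 and 18.1 with IL-13, and 29.1 and 36.6 in control cells (24 h, then 12 h). It rose by 2.25 ± 0.22 in ATRA against control (limma adjusted p = 0.0233) and by 1.68 ± 0.22 in IL-13 with ATRA against IL-13 (adjusted p = 0.0314). The 4 treatments did not overlap, and their order, with ATRA alone highest and IL-13 alone lowest, was that of C5ar1. A second probe, well above background on 1 array, differed by 0.75 and 1.20 in these comparisons. The first call was lost without either control array, either array with both agents or the 24 h ATRA array (adjusted p up to 0.165), and the second without any 1 array of control, IL-13 or the combination (up to 0.168). With normexp the differences were 1.1 and 0.63, and the second call was lost (adjusted p = 0.17).

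Lair1, an inhibitory receptor for collagens that also binds C1q, and Itgax, the alpha chain of complement receptor 4, went with IL-13. Lair1 had 1023 and 1248 with IL-13 and ATRA, 270.0 and 214 with ATRA, 1319 and 1333 with IL-13, and 291 and 211 in control cells (24 h, then 12 h). It rose by 2.42 ± 0.21 in IL-13 against control (limma adjusted p = 0.0215), by 2.23 ± 0.21 in IL-13 with ATRA against ATRA (adjusted p = 0.0331) and by 2.19 ± 0.21 in IL-13 with ATRA against control (adjusted p = 0.00881). Its 4 arrays with IL-13 all lay above the 4 without, and its other probes gave 1.68 and 2.0 for IL-13 minus control. Itgax had 480.0 and 756 with IL-13 and ATRA, 25.5 and 51.4 with ATRA, 1818 and 1640.0 with IL-13, and 95.3 and 90.9 in control cells (24 h, then 12 h). It rose in the same 3 comparisons (adjusted p = 0.0177, 0.0229 and 0.0121). Its dimmer second probe gave smaller differences, at 2.68, 1.19 and 1.34. With the mean of probes the Itgax call in IL-13 with ATRA against ATRA was lost. With normexp the Itgax differences were 3.48, 2.66 and 2.04, beside 4.21 ± 0.31, 4.06 ± 0.31 and 2.69 ± 0.31. For ATRA minus control Itgax differed by -1.36 ± 0.31 (limma adjusted p = 0.117). For IL-13 with ATRA minus IL-13 it differed by -1.52 ± 0.31 (adjusted p = 0.082). Neither was called, and the second probe gave 0.15 and -1.34. Lair1 differed by -0.04 and -0.23 in these comparisons. Of the 3 Lair1 calls, the first was lost without either control array or the 24 h IL-13 array (adjusted p up to 0.14), the second in each of 8 refits (0.0567 to 0.185) and the third without either control array (up to 0.0533). Of the 3 Itgax calls, the first was lost without either control array or the 24 h IL-13 array (up to 0.127), the second without any 1 array of control, ATRA or the combination (up to 0.142), and the third without any 1 array of control or the combination (up to 0.0875).

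Itgb2, the beta chain that pairs with Itgax and Itgam in complement receptors 4 and 3, had 5446 and 7301 with IL-13 and ATRA, 4397 and 6319 with ATRA, 4210.0 and 3710.0 with IL-13, and 2780.0 and 2853 in control cells (24 h, then 12 h). It rose by 1.16 ± 0.20 in IL-13 with ATRA against control (limma adjusted p = 0.0317), a call lost without either array of control or of the combination (up to 0.18). C5ar2, the second C5a receptor, had 647 and 592 with IL-13 and ATRA, 567 and 639 with ATRA, 410.0 and 429 with IL-13, and 348 and 388 in control cells (24 h, then 12 h). It rose by 0.75 ± 0.12 in the same comparison (adjusted p = 0.028), a call lost without any 1 array of control, ATRA or the combination (up to 0.168). Its ATRA minus control difference was 0.71 ± 0.12 (adjusted p = 0.0638), beside 1.92 ± 0.14 for C5ar1.

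**Figure D4:**
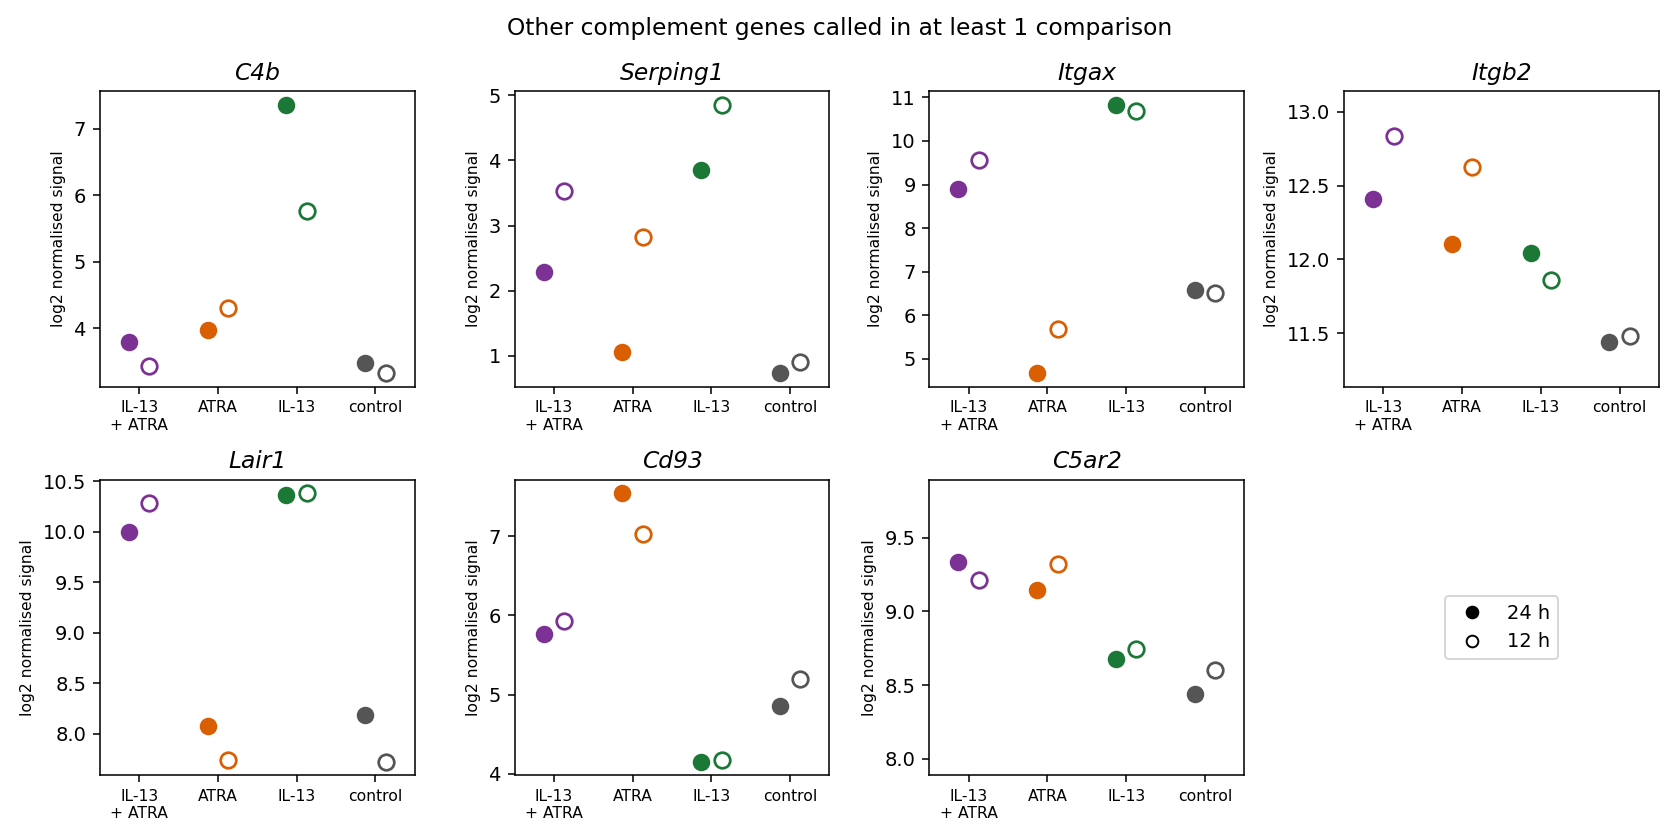
Log2 normalised signal of the 7 further complement genes called in at least 1 comparison, 1 panel per gene with its own vertical axis. Filled points are 24 h arrays and open points 12 h arrays, with no error bars since each point is 1 array. C4b and Serping1 are highest with IL-13 alone, Itgax and Lair1 are high wherever IL-13 was given, and Cd93 is highest with ATRA alone.

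In each list the uncalled gene with the largest difference was C2 among initiation factors, Hc (C5) among terminal factors, Clu (clusterin) among regulators, Lrp1 among receptors and C1qtnf6 among C1q-domain relatives. C2 and Hc were dim, well above background on 3 and 4 of 8 arrays. Lrp1, an uptake receptor, had 1280.0 and 2581 with IL-13 and ATRA, 3576 and 5371 with ATRA, 372 and 2118 with IL-13, and 2207 and 6659 in control cells (24 h, then 12 h), so its arrays differed by time as much as by treatment. Its probes disagreed, at -2.11 and -0.53 for IL-13 minus control.

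Known targets of the agents and markers of cell types were read as a check of the labels. Arg1 and Cish, which IL-13 induces, were higher in both treatments with IL-13 than in control cells. Cish passed the filter only through the 4 arrays with IL-13, where it was high, so its values are a description. It was at least 168-fold above control with IL-13 and ATRA and at least 173-fold with IL-13. Arg1 did not mark IL-13 alone. It was at least 2.45-fold above control with ATRA alone, and higher by 5.47 ± 0.50 with both agents than with IL-13 alone. Tgm2 and Rarb, which retinoic acid induces, were higher by 4.50 ± 0.39 and 1.81 ± 0.18 in ATRA against control (limma adjusted p = 0.0182 and 0.0235). In IL-13 with ATRA against IL-13 they were higher by 4.99 ± 0.39 and 2.17 ± 0.18 (limma adjusted p = 0.0134 and 0.0138). Of 10 macrophage markers, 10 were well above background on all 8 arrays. Of 4 hepatocyte markers measured, 4 were well above background on 0 arrays, as were 4 of 5 fibroblast markers, 2 of 6 T cell markers (Cd3g and Cd8a), 2 of 4 mast cell markers and 1 of 5 B cell markers, while Cd3e, Cd4, Lck and Col1a2 were above it on all 8. The part of these last 4 in the complement values was not tested. Between arrays, the 75th percentile lay at signals of 448 to 739, 54.1% to 61.4% of probes were well above background, and 0 probes were saturated.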

How the data were processed

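The labels' protocols name total RNA labelled with Cy3. Per the file headers, Agilent Feature Extraction 10.7.1.1 produced the deposited processed signals, in the unit intensity and with background subtracted, and the other 0 or 1 flags per spot; arrays were of design 014868. The authors also deposited a table of log2 values whose normalization is not given in the sources used here; it served as an alternative. Control spots and outlier-flagged spots were removed and spots of a probe averaged. Log2 signals were scaled to a common 75th percentile. A filter kept 24017 probes, those that cleared background at both times in 1 or more treatments, and the probe with the highest mean stood for a gene.

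A linear model was fitted in limma 3.58.1 (R 4.3.3) over 15440 genes, with terms for treatment and time (residual degrees of freedom 3), with Benjamini-Hochberg adjustment and two-sided tests. The fit was tested on simulated data. The labels give 1 array per treatment and time, and the 12 h array was numbered 1 and the 24 h array 2 here. The time term pairs arrays that share a time and a slide. With 2 arrays per treatment, their number limits the precision. Members and lists were chosen with earlier results of these data known. Named genes are the 8 members, the listed genes called in any comparison, the uncalled gene with the largest difference in each list, the 5 genes most like C1q, and 4 genes that check the labels. Alternatives changed background correction, normalization, filter, probe choice, time term, variance settings and arrays.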

Additional observations from a re-analysis of the deposited data

Results flagged for a closer look

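The values below are log2 differences of normalised signal, and no difference between times was tested. Among the C1q and other main complement genes, the 24 h and 12 h arrays gave opposite signs for C1qc in IL-13 with ATRA minus ATRA (0.07 and -0.27), for C3 in ATRA minus control (1.17 and -0.17), and for C3ar1 in IL-13 with ATRA minus IL-13 (-0.46 and 0.52). Cfp did so in IL-13 minus control (-0.12 and 0.14) and in IL-13 with ATRA minus ATRA (0.26 and -0.01).

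Among the other complement genes, the signs at 24 h and 12 h were opposite for C5ar2 in IL-13 with ATRA minus ATRA (0.19 and -0.11) and for Lair1 in ATRA minus control (-0.11 and 0.02). C2 had opposite signs in IL-13 minus control (0.13 and -1.39), in IL-13 with ATRA minus IL-13 (-1.12 and 0.07) and in IL-13 with ATRA minus ATRA (-0.92 and 0.28). Hc had 0.56 and -1.07 in IL-13 with ATRA minus ATRA. Clu had 0.02 and -0.88 in ATRA minus control, and 0.47 and -0.68 in IL-13 with ATRA minus control. Lrp1 had 0.70 and -0.31 in ATRA minus control. C1qtnf6 had -0.16 and 0.08 in IL-13 minus control, and -0.17 and 0.44 in IL-13 with ATRA minus ATRA.

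For some genes the fitted difference with an agent had opposite signs with and without the other agent, at both times, although at least 1 of each pair of differences was not called. The difference with ATRA was -2.95 in the presence of IL-13 and 0.74 in its absence for C4b. For Serping1 the values were -1.45 and 1.12, the second between ATRA and control arrays none of which was well above background, so no direction is read from it. The difference with IL-13 was -0.52 in the presence of ATRA and 3.17 in its absence for C4b, and 0.33 and -1.04 for Clu. The limma interaction had an adjusted p of 0.642 for C4b, 0.799 for Serping1 and 1.0 for Clu, so the difference between these effects did not pass the test.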

How the results depend on the processing

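Of 850 recomputed differences of the 8 genes, 829 kept their sign. The 21 that changed it belonged to 11 of 48 differences, none above 0.56 on the log2 scale in size. Fits without the replicate block (no time term) left the median of the 8 genes at 1.30 for ATRA minus control and, Serping1 apart, lost no call of the 7 further genes called. With the filter for all 8 arrays, which drops Cfb, the median was 1.92 for ATRA minus control and 2.76 for IL-13 with ATRA minus control (1.30 and 1.96 otherwise).

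Counts of further complement genes called were small and moved with the settings, as did those of all 15440 genes. The cause was not tested. In the order of comparisons below, the calls over all genes were 287, 196, 407, 56 and 1313. They were 371, 236, 401, 64 and 1066 with normexp correction and 630, 606, 817, 167 and 2027 with trend and robust settings. With only the groups compared they were 277, 9, 13, 2 and 921. The filter for all 8 arrays gave 433, 284, 468, 88 and 1487 of 13682. With no filter they were 0, 1, 7, 4 and 36 of 27321. For ATRA against control, 1 was called, against 3 with trend and robust settings. The count was 2 with normexp correction, with the filter for all 8 arrays and with time as a random block (384 of all genes). For IL-13 against control (4), 2 were called under the filter for all 8 arrays and 1 when only the groups compared were fitted. For IL-13 with ATRA against IL-13 (2), 1 was called under the filter for all 8 arrays, 4 with trend and robust settings and 0 with only the groups compared (9 at an unadjusted p under 0.05). For IL-13 with ATRA against ATRA (2), 1 was called with the mean of probes (46 of all genes) and 0 with only the groups compared (9 unadjusted). For IL-13 with ATRA against control (5), 8 were called with only the groups compared. With no filter, limma called 0 in each of the 5 (7 to 13 at an unadjusted p under 0.05), so all 14 calls were lost, and called 0 of the 8 main genes in each (2 to 8 unadjusted). Fits to only the groups compared lost 8 of 14, and normexp correction lost 3 of 14.

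Refits that left out 1 array had a treatment with 1 array. Their calls moved over all genes as well as over the complement genes, so they are not counted here. Without either control array no call of the further complement genes remained, and calls over all genes fell too. Over the refits without 1 array, medians of the 8 genes ranged from 1.21 to 1.59, 0.79 to 1.73, 1.1 to 1.96, -0.03 to 0.44 and 1.59 to 2.34. These are in the same order of comparisons. For the interaction the range was -0.34 to 0.01. The fit to only the groups compared was not possible for the interaction. Signal over background limits C2, Hc, Abca13, Serping1 and the second C3 probe.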
